A study of Mus musculus with 8 samples.

Results

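The genes described here encode the adaptors and kinases that carry a signal from Toll-like receptors to the nucleus: the adaptors Myd88, Ticam1 and Ticam2, the kinases Irak4, Irak1 and Irak2, the ubiquitin ligases Traf6 and Traf3, and the kinases Tbk1 and Ikbke. They were chosen by name, as 10 genes of the pathway, and each was examined together with the 50 kb on either side of it. The data are ATAC-seq peak lists (a transposase cuts and tags accessible DNA) from dendritic cells of the mouse labelled CD8-positive, in 2 samples that received no stimulus. The labels call the source spleen in 1 field and a cell line in another, and do not say whether the samples came from separate cultures, so the spread between them may be technical. No strain, age or genetic change is given for the cells, which were cultured in IMDM with serum. The other 6 samples of the series, ChIP-seq for IRF3 after poly(I:C), IRF5 after CpG oligonucleotide and IRF9 after interferon-beta, each at 90 min, were not analysed here. Around the 10 genes lay 76 accessible regions shared by both replicates, of 44365 shared regions in the whole series. All 10 genes lie on different chromosomes, so no region was counted for more than 1 gene. A single group of 2 samples allows no test between conditions, and the values below describe unstimulated cells.

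Toll-like receptors recognise microbial lipids, proteins and nucleic acids and signal through short adaptor proteins that bind their cytoplasmic tails. MYD88 serves all of these receptors except TLR3 and recruits the IRAK kinases and the ubiquitin ligase TRAF6, which leads to NF-kB activation. TRIF, the product of Ticam1, serves TLR3 and, bridged by TRAM, the product of Ticam2, also TLR4; it recruits TRAF3 and the kinases TBK1 and IKK-epsilon (the product of Ikbke), which phosphorylate IRF3. The dendritic cells called cDC1, which carry CD8 in mouse spleen, are known for sensing double-stranded RNA through TLR3 and CpG DNA through TLR9.

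Of the 10 genes, 8 had a shared region within 1 kb of their start and 2, Ticam2 and Ikbke, did not. By the same rule a shared region stood at 48.3% of all 21631 coding genes. The start is that of the RefSeq promoter table, and either end of the gene where that table lists none, as for Ticam2. Among genes with a listed start, 8 of the 9 members had a shared region within 1 kb of it, against 49.3% of 17274 coding genes. In all 8 cases the annotated start itself lay inside a shared region, as it did for 84.9% of the coding genes with a region at the start.

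The letters around the start show what lies under these regions. Promoter sequences of 6 genes are given from the RefSeq table for GRCm38.p6, which has the same chromosome sequences as mm10: 250 bases before the start and 50 after it, 5′ to 3′ on the gene's strand. Myd88, Ticam1, Irak4, Traf6 and Tbk1 are shown because a shared region covered their start, and Ikbke because none did. Capitals mark matches to any of 9 short motifs searched on both strands.
Myd88: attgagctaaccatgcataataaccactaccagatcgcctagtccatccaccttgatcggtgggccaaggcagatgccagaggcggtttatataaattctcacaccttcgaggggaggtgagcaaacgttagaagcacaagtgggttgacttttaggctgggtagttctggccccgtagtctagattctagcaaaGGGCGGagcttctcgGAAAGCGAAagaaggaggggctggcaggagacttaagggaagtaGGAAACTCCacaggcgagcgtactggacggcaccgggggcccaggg
Ticam1: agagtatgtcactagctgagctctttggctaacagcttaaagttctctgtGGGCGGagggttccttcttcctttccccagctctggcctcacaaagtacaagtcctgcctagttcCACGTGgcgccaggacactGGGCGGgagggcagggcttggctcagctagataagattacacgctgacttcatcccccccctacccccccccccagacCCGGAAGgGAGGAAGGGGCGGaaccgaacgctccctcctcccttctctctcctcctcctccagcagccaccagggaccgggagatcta
Irak4: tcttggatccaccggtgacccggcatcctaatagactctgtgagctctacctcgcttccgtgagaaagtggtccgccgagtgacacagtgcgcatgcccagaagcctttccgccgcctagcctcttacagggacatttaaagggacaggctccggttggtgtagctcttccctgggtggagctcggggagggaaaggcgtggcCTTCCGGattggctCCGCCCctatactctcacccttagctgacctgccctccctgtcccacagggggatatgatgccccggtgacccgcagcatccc
Traf6: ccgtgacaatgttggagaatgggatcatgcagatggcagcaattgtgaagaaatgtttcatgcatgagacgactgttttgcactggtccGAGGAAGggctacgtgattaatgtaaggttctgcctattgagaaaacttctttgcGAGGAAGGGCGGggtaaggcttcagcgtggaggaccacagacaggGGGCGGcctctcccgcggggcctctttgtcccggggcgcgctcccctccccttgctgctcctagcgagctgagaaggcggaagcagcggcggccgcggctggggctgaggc
Tbk1: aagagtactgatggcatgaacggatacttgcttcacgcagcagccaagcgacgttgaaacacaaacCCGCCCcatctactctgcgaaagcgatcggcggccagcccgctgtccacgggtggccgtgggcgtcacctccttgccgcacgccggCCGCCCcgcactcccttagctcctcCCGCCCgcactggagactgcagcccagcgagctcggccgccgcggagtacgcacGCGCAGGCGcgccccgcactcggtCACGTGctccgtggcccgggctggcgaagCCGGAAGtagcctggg
Ikbke: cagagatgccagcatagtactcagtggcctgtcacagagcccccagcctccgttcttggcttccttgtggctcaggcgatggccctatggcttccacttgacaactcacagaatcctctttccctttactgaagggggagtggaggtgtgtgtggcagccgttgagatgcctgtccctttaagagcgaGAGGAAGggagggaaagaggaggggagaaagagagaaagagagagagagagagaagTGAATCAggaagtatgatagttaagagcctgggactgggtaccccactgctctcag

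The promoters lie at chr9:119339969-119340268 (Myd88, minus strand), chr17:56276718-56277017 (Ticam1, minus strand), chr15:94543410-94543709 (Irak4, plus strand), chr2:101678170-101678469 (Traf6, plus strand), chr10:121586745-121587044 (Tbk1, minus strand) and chr1:131279514-131279813 (Ikbke, minus strand). Shared regions covered all 300 bases in Ticam1 and Tbk1, 275 in Irak4, 184 in Traf6, 112 in Myd88 and 0 in Ikbke. Matches to the GC box GGGCGG, to which factors of the Sp1 family can bind, were present in 8 of the 9 member promoters, the exception being Ikbke, against 46.7% of all 21045 coding promoter entries and 67.0% of those with a shared region within 1 kb. Myd88 was the only member with a match to GAAANNGAA, the core of the interferon response element, at position -40 (positions before the start are negative), and to the NF-kB form GGANTTTCC, at position 5 on the opposite strand. Those motifs occurred in 8.1% and 1.29% of all coding promoter entries, and in 7.22% and 1.21% of those with a region, and both matches in Myd88 lay inside its shared region. Other forms of the NF-kB site were not searched, so the other promoters may hold them. The Traf3 promoter, not printed above, holds such a form, ggggatttcc, just before its start. The share of entries with that string was not counted. The ETS motif CCGGAAG was found in Ticam1, Irak4 and Tbk1, against 11.7% of all entries and 20.9% of those with a shared region, and the ETS form GAGGAAG, which PU.1 can bind, in Ticam1, Traf6, Traf3 and Ikbke, against 13.3% and 13.1%. A GAGGAAG match in Traf6 overlapped a GC box by its last letter. Tbk1 alone matched the NRF1 form GCGCANGCG, against 8.65% of all entries and 15.4% of those with a region. Ikbke alone matched the AP-1 form TGANTCA, against 7.04% of all entries and 9.45% of those without a region. The middle letter N was left free, and in Ikbke it was A, so no member matched with C or G there. The share of entries with C or G there was not counted. Ticam1 and Tbk1 matched the E box CACGTG, against 7.91% of all entries and 10.6% of those with a region. TGACGTCA, the cyclic AMP response element, matched no member, against 2.26%. A match is a string of letters and not a bound site.

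CG pairs separated Ikbke from the rest. Its promoter held 4 CG pairs in 300 bases, while the 8 promoters with a shared region held between 10 in Ticam1 and 59 in Traf3. Among all coding promoter entries with 0 to 4 CG pairs, 8.84% had a shared region within 1 kb. The share was 24.7% with 5 to 9 CG pairs, 61.4% with 10 to 19 and 78.1% with 20 or more. Ticam1, Myd88, Irak4, Irak2 and Traf6 fell in the class of 10 to 19. G and C made up 54.0% of the Ikbke promoter, as of that of Myd88, and 84.0% of that of Traf3. Base composition can affect amplification and mapping of reads, and its part in these differences was not tested.

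**Figure D1:**
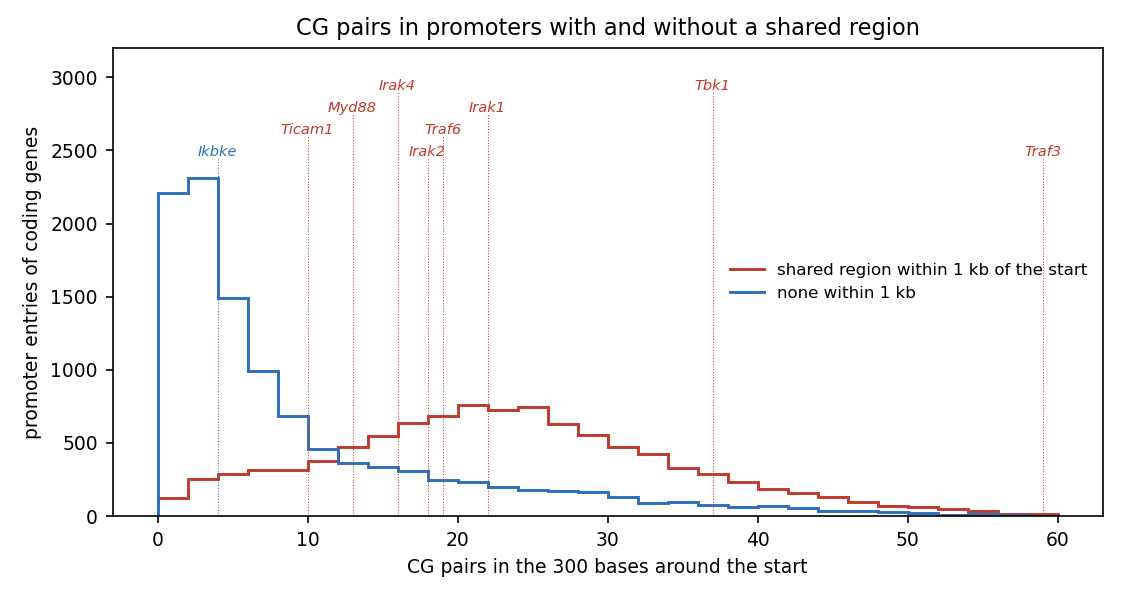
Number of promoter entries of coding genes (vertical axis) by the number of CG pairs in the 300 bases around the start (horizontal axis), for entries with a shared region within 1 kb of the start (red line) and without one (blue line). Dotted lines place the 9 members in the table, with Ikbke at 4 CG pairs and the 8 members with a shared region between 10 and 59.

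The regions over the 8 starts differed in fold enrichment. The deposited fold enrichment is the authors' ratio of summit signal to nearby background, taken here with 1 read added to each. It is used here to describe and rank peaks within each list. The median over the 8 members was 8.45 in replicate 1 and 9.73 in replicate 2, against 7.92 and 8.25 for the region nearest the start of all coding genes with a start region. In both lists Myd88 was the lowest of the 8, and the highest was Irak2 in replicate 1 and Traf6 in replicate 2. Traf6, Irak2, Irak4, Irak1 and Ticam1 could not be ordered, since neighbours in that order had overlapping values. Their lowest value, 8.06, stood above the higher value of Traf3, 7.37, and of Tbk1, 7.8. Both genes in turn stood above the higher value of Myd88, 5.15. Summit reads gave a different order. Traf3, with 26 and 32 reads, and Tbk1, with 19 and 31, exceeded Irak1, with 18 and 24. Ticam1, with 34 and 51, and Irak4, with 27 and 62, stayed above these genes. Local backgrounds were 2.73 and 3.48 reads at Traf3, 2.16 and 3.1 at Tbk1, and 1.03 and 1.53 at Irak1.

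**Figure D2:**
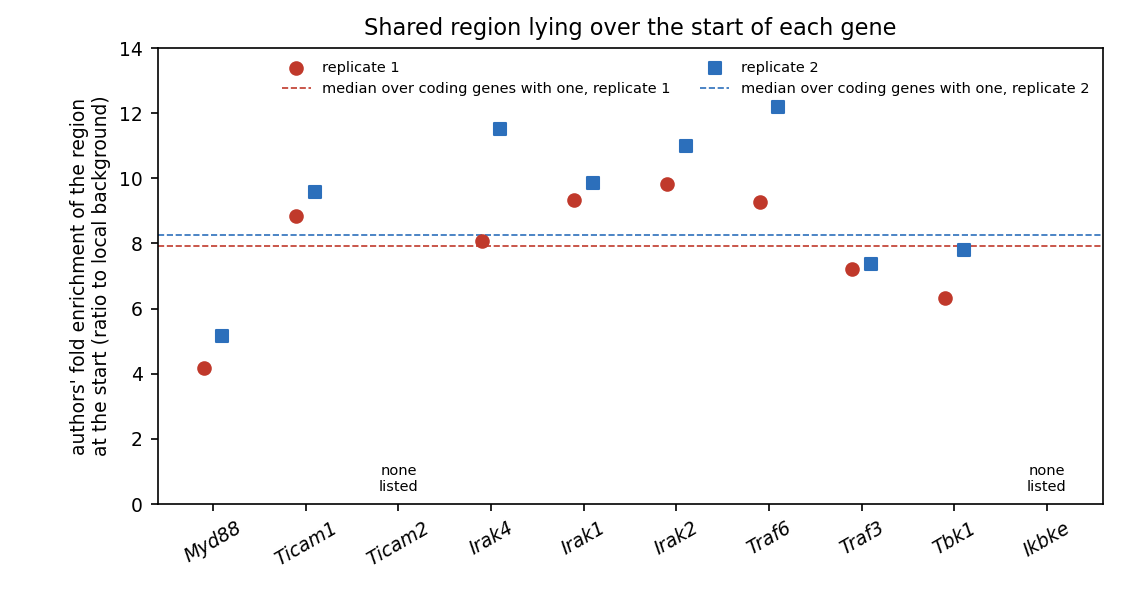
Authors' fold enrichment (ratio to local background) of the shared region over the start of each gene, in replicate 1 (circles) and replicate 2 (squares). Dashed lines are the medians over all coding genes with a shared region at the start, 7.92 in replicate 1 and 8.25 in replicate 2; Myd88, Traf3 and Tbk1 lie below the line of each replicate, and Ticam2 and Ikbke had no such region.

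Among the adaptors, Myd88 (chr9:119335934-119340018) had a narrow, weak region over its start and stronger ones on both sides. The start region, chr9:119339982-119340093, had fold enrichments of 4.18 in replicate 1 and 5.15 in replicate 2. At the summit 14 and 27 reads stood over local backgrounds of 2.59 and 4.44 reads. In the list of replicate 1 it ranked at percentile 5.71 of the scores, and in that of replicate 2 at percentile 43.1. A neighbouring gene, Acaa1a, which encodes a peroxisomal thiolase, starts 1276 bp from the Myd88 start. Its start region, chr9:119340966-119341512, came within 948 bp of the Myd88 start and had fold enrichments of 7.26 and 8.93. By the mean of both replicates the strongest region of the Myd88 window, chr9:119334386-119334637, lay between genes, 5381 bp downstream of the start and beyond the far end of the gene, with 9.51 and 10.2. In replicate 1 alone a region at an end of Xylb was higher, with 10.7, against 7.15 in replicate 2.

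Ticam1 (chr17:56269462-56276767) had its start inside the region chr17:56276692-56277113, with fold enrichments of 8.84 and 9.58 and summits of 34 and 51 reads. That region ranked at percentiles 91.8 and 94.7 of the 2 lists. A weaker shared region lay inside the gene, 3245 bp downstream of the start, with 4.87 and 4.53. The window held 14 shared regions, or 13.0 per 100 kb, the highest density of the 10 genes. Of these, 6 were at the starts of Fem1a, Plin3 and Uhrf1, with 2 regions each, and 1 lay at an end of Kdm4b.

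Ticam2 (chr18:46558231-46574533) had no shared region inside the gene. The nearest shared region, chr18:46542191-46542391, lay 15840 bp beyond the end with the lower coordinate and had fold enrichments of 7.11 and 11.4. The strongest of its window, chr18:46535235-46535563, lay 22668 bp from that end, between genes, with 11.1 and 12.4. Replicate 1 had 2 peaks inside the gene, with 4.8 and 6.19, that replicate 2 lacked, and replicate 2 had a peak of 6.15 at 1842 bp beyond the other end that replicate 1 lacked. The summits of those 3 peaks held 9, 11 and 13 reads. No listed start or strand was used for this gene, so its promoter was not placed.

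The IRAK kinases all had an open start. IRAK4 is the first kinase recruited by MYD88, and its gene (chr15:94543613-94568317) shares its start region, chr15:94543435-94544069, with Pus7l, a pseudouridine synthase gene that starts 153 bp away. Fold enrichments there were 8.06 in replicate 1 and 11.5 in replicate 2, from summits of 27 and 62 reads. The ratio of reads, 2.3, was the only 1 among the 76 member regions whose exact 95% binomial interval left out the median ratio of all shared regions, 1.44. Of all 44365 shared regions 0.613% did so. Inside Irak4 lay 3 further shared regions, the strongest of them at chr15:94565931-94566234. It was 22271 bp downstream of the start, with fold enrichments of 12.0 and 13.2 at percentiles 96.8 and 99.2. Its fold enrichment was higher than that of the start region in both replicates. Its summits held 32 and 57 reads, so in replicate 2 the start region had more reads.

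IRAK1, the kinase that passes the signal on to TRAF6, is encoded on chromosome X (chrX:74013914-74023921). Its start region, chrX:74023717-74023996, had 9.34 and 9.87, the closest pair of values among the IRAK genes, from 18 and 24 reads. The other 3 shared regions of the window had fold enrichments from 4.77 to 5.37 in replicate 1 and from 6.69 to 7.46 in replicate 2. The medians of all shared regions were 7.22 and 7.59. No shared region other than that at the start lay inside Irak1.

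Irak2, whose product sustains the response after IRAK1, had the most shared regions of the 10 genes (chr6:113638467-113695026). Its window held 18, and 1.12% of all coding genes had as many or more in windows of any length. Per 100 kb it held 11.5, below the 13.0 of Ticam1. Some of the 18 lay at the starts of Brk1, Vhl, Tatdn2 and Sec13 or further inside Vhl. The Irak2 start region, chr6:113638317-113638600, had 9.83 and 11.0, from 21 and 30 reads. It was the strongest of the window by the mean of both replicates. Beside it, 9 shared regions lay inside the gene, from 6376 to 52721 bp downstream of the start. The strongest of those 9, chr6:113681400-113681685, had 9.92 and 10.8. The region nearest the far end, chr6:113691188-113691363, had 4.34 in replicate 1, from 7 reads, and 8.6 in replicate 2, from 19 reads.

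The ubiquitin ligases differed in how their starts were covered. Traf6 (chr2:101678420-101701668) had a single region over its start, chr2:101678286-101678528, with 9.28 in replicate 1 and 12.2 in replicate 2, from 19 and 33 reads. No other shared region lay inside Traf6 or between it and its nearest neighbours. The strongest region of any of the 10 windows lay beyond the far end of Traf6, inside Prr5l, at chr2:101732618-101733210. It had fold enrichments of 12.4 and 13.6, at percentiles 97.9 and 99.4, and was 54198 bp downstream of the Traf6 start. Rag1 and Rag2, the recombinase genes of lymphocytes that lie upstream of Traf6, had no shared region within 1 kb of their starts.

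Traf3 (chr12:111166321-111267155) had 2 shared regions within 1 kb of its start, separated by 113 bp that neither covered. The downstream region, chr12:111166334-111166515, holds the start and had 7.23 and 7.37. The upstream region, chr12:111166071-111166220, had 5.12 and 6.05. The uncovered stretch held 3 of the 4 GC boxes found in the Traf3 promoter. Inside the gene 3 more shared regions lay between 6484 and 64560 bp downstream of the start. The strongest of the window, at chr12:111302044-111302419, was inside the neighbouring gene Cdc42bpb, with 12.2 and 13.2.

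Tbk1 and Ikbke encode closely related kinases and were unlike each other at their starts. Tbk1 (chr10:121546455-121586794) had the region chr10:121586671-121587104 over its start, with 6.32 in replicate 1 and 7.8 in replicate 2, from 19 and 31 reads. A stronger region lay inside Tbk1, 36787 bp downstream of the start, at chr10:121549760-121550007, with 9.31 and 13.4. Ikbke (chr1:131254600-131279601) had no shared region inside the gene, and neither replicate alone had a peak there. The nearest shared region to its start, chr1:131252634-131252774, was 26789 bp downstream, 1826 bp beyond the far end of the gene, with 8.17 and 6.47 from 15 and 16 reads. The 3 shared regions of the Ikbke window were the fewest of the 10 genes, and 42.2% of coding genes had 3 or fewer. No listed summit had fewer than 7 reads in replicate 1 or 9 in replicate 2, so the missing peaks show only that no opening was detectable at the Ikbke start, and none in both replicates at Ticam2, at this depth and threshold.

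**Figure D3:**
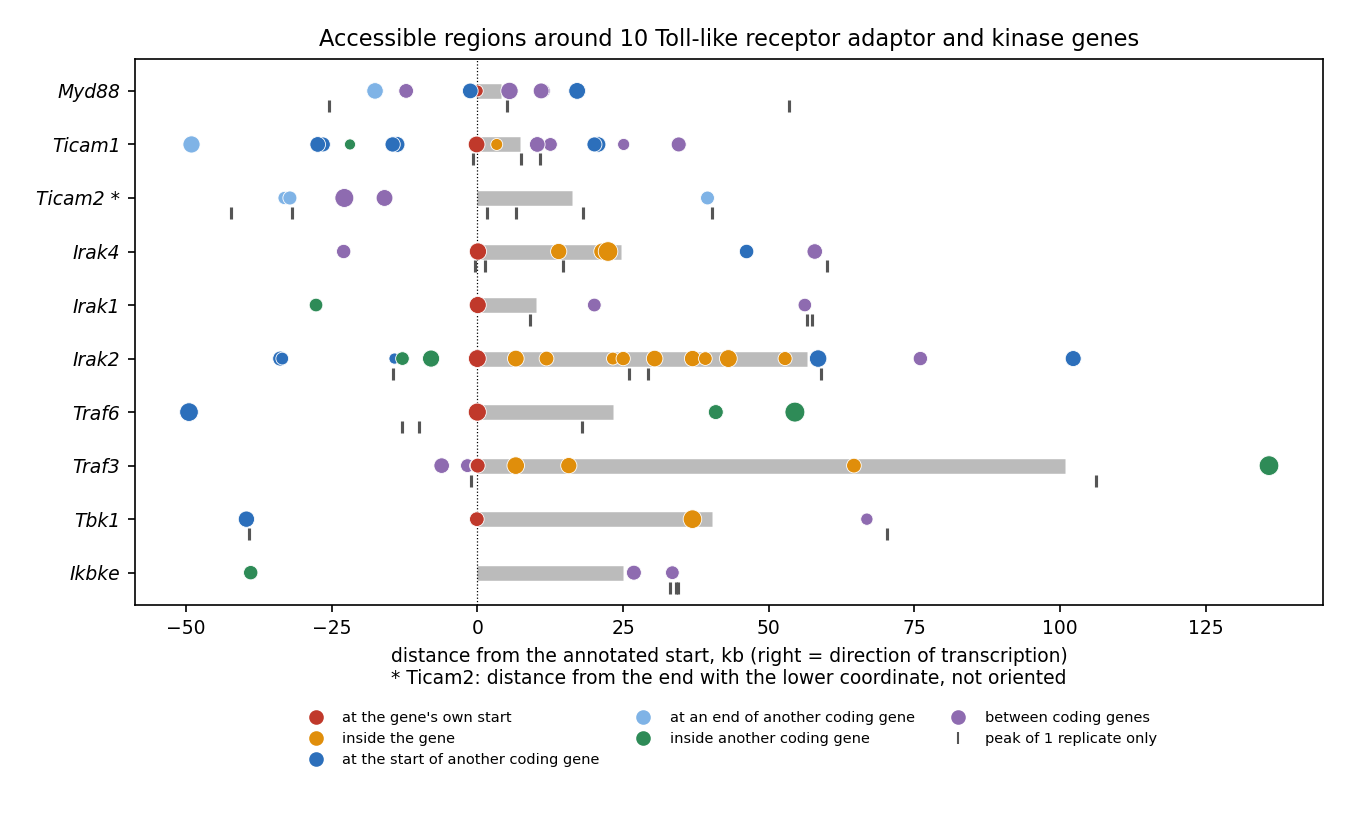
Shared regions (circles, area scaled to the mean fold enrichment of both replicates, coloured by place) and peaks of 1 replicate only (ticks) around each gene, by distance from the annotated start in kb along the direction of transcription; grey bars are the genes. A circle lies over the start of 8 genes, and the grey bars of Ticam2 and Ikbke hold none; Ticam2 is drawn from its end with the lower coordinate.

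By the mean of both replicates, the strongest shared region was not at the gene's own start in 8 of the 10 windows. For Ticam2 and Ikbke this was fixed, since neither had a start region. The same share was not counted over all coding genes, so the count does not set these genes apart. Only Irak1 and Irak2 had their strongest region there. For Irak2 this did not hold in replicate 1, where the start had 9.83, against 10.4 at the start of Tatdn2 and 9.92 at 2 regions inside the gene. In Irak4 and Tbk1 the strongest lay inside the gene. By place, 9 of the 76 regions were at a member's start, 17 elsewhere inside a member, 17 at the start of another coding gene, 5 at an end of a coding gene without a listed start, 8 inside another coding gene and 20 between coding genes. The median fold enrichment at member starts was 8.06 in replicate 1 and 9.58 in replicate 2, against 9.07 and 8.44 elsewhere inside members, 7.92 and 8.2 at starts of other coding genes, and 7.04 and 6.86 between coding genes. By median, member starts were thus not the strongest place in replicate 1. Irak2 alone held 9 of the 17 regions elsewhere inside members. Of 32 other coding genes that reach into these windows, 23 had a shared region at their start or end. A region in a window may therefore belong to a neighbour, and which gene it acts on was not tested.

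The median window held 6 shared regions, against 5 for all coding genes, whose quartiles were 1 and 8. Per 100 kb of window the medians were 4.14 for the 10 genes and 3.35 for all coding genes. At least 1 shared region lay inside 8 of the 10 genes, whereas 42.5% of all coding genes had none inside.

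**Figure D4:**
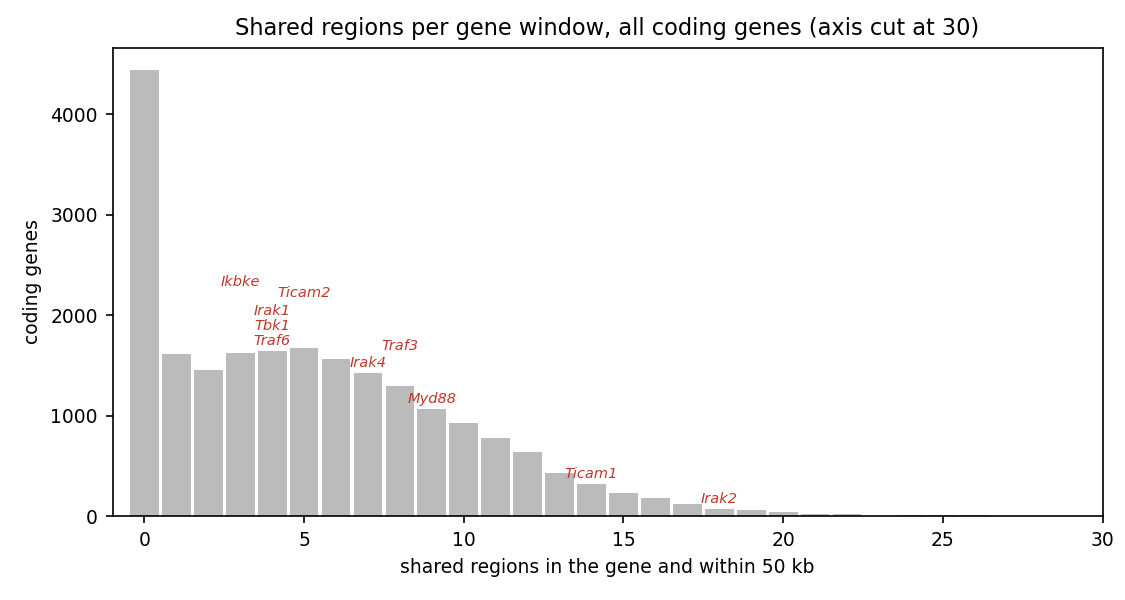
Number of coding genes (vertical axis) by the number of shared regions in the gene and within 50 kb of it (horizontal axis), with the 10 genes written above their counts. Irak2 at 18 and Ticam1 at 14 lie in the right tail, and the other 8 lie between 3 and 9.

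Peaks around the 10 genes were shared between replicates about as often as peaks elsewhere. Replicate 1 had 86 peaks around the 10 genes, of which 79 overlapped a peak of replicate 2 (91.9%, exact Clopper-Pearson 95% interval 83.9 to 96.7), against 90.0% of all its 50950 peaks. Replicate 2 had 102, of which 76 overlapped a peak of replicate 1 (74.5%, 64.9 to 82.6), against 76.5% of all its 58319 peaks. These intervals cover counting error only. Each of the 10 genes had at least 1 peak found in replicate 2 alone, 26 in all, while the 7 found in replicate 1 alone were at Irak2, Ticam2 and Ikbke. Those unshared peaks were weak, with median score percentiles of 9.22 in replicate 1 and 18.4 in replicate 2, against 66.4 and 64.1 for the shared regions around the same genes. Replicate 2 was the deeper library, with a genome-wide background of 1.28 reads per position against 0.676 in replicate 1. The part of depth in its larger number of unshared peaks was not tested.

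**Figure D5:**
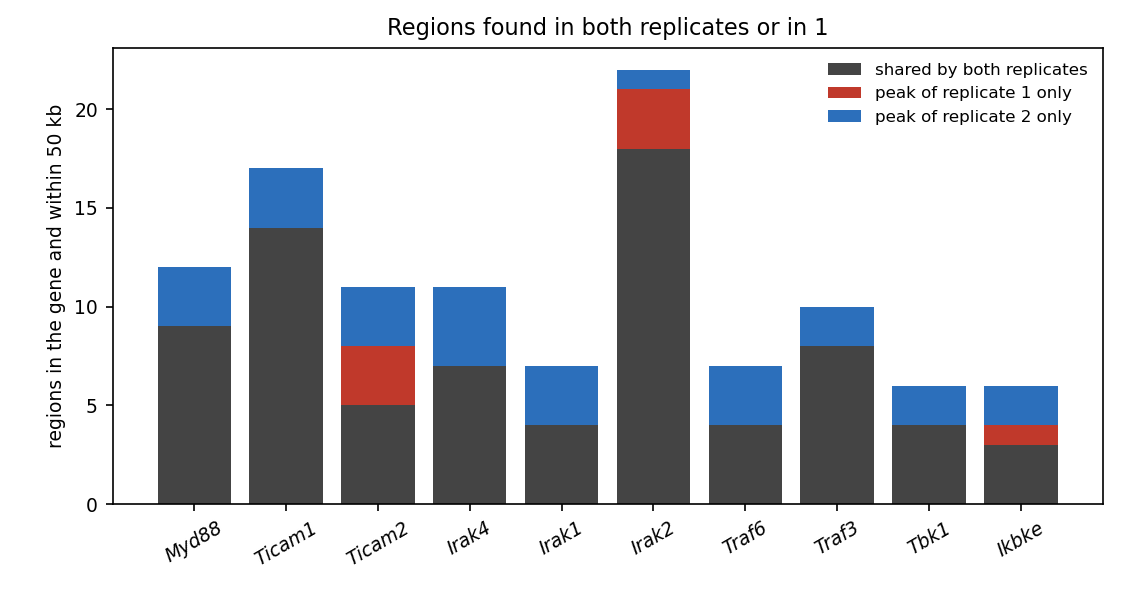
Number of regions in each gene and within 50 kb of it that were shared by both replicates (dark), found in replicate 1 only (red) or in replicate 2 only (blue). Blue segments stand on all 10 bars, and red ones on those of Ticam2, Irak2 and Ikbke.

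Other genes of the pathway, from lists of receptors, partners, inhibitors and output factors, had a shared region at the start in 47 of 57 cases (82.5%), against 48.3% of all coding genes. All 7 genes of the TAK1 and IKK complexes had a start region, as had all 5 TBK1 scaffold and RIP kinase genes and all 6 genes of sorting and other adaptors. Of the 12 Toll-like receptor genes 7 had a start region, and Tlr1, Tlr2, Tlr7, Tlr8 and Tlr13 had none. Among relatives of the IRAK and TRAF genes only Traf1 of 6 had none, among 8 ubiquitin partners only Peli2, and among 7 inhibitors only Sigirr. Of the 6 output factors, Irf5 and Irf7 had none. By the mean of both replicates the highest values were at Tlr4, the endotoxin receptor, with 11.2 and 14.1, at Sarm1, a further adaptor with this domain, with 12.4 and 12.6, and at Traf2, a ligase of tumour necrosis factor receptors, with 12.5 and 11.2. Among proteins that dock TBK1, the start region of Tank had 7.74 in replicate 1 and 11.0 in replicate 2, that of Azi2 had 7.25 and 9.29, that of Optn had 5.8 and 7.14, and that of Tbkbp1 had 5.04 and 4.74. Ripk1, a kinase that TRIF recruits, had 8.17 and 7.97. These values belong to the region with the highest mean within 1 kb of each start, which for Myd88 is the Acaa1a region, with 7.26 and 8.93. On that measure the lowest member values were 6.32 in replicate 1, at Tbk1, and 7.37 in replicate 2, at Traf3. Tank, Azi2 and Ripk1 lay in the range of the 8 member starts, and Optn and Tbkbp1 lay below it in both replicates. Irak3, the inhibitory relative of the IRAK kinases, had 6.46 and 7.01. The start regions of the TRAF relatives were at 9.32 and 10.1 for Traf7, 8.78 and 7.56 for Traf5, and 6.56 and 6.03 for Traf4. Of the transcription factors at the end of the pathway, Irf3 had 10.0 and 8.34, Rel had 7.5 and 7.22, Rela had 5.45 and 6.72, and Nfkb1 had 4.5 and 5.07. In 11 of the 57 genes either end was used, since the table lists no start for them.

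The cell type was checked by the same rule, which 48.3% of all coding genes met. Of 15 cDC1 marker genes 9 had a shared region at the start or an end, among them Flt3, Wdfy4 and Irf8, but Cd8a, Xcr1, Clec9a, Batf3, Itgae and Zbtb46 had none. None of 4 T cell and none of 5 neutrophil markers had such a region, and 1 of 5 B cell markers did, Ms4a1. Of 5 macrophage markers 4 did, the exception being Adgre1, as did 3 of 5 plasmacytoid dendritic cell markers, Siglech, Bst2 and Tcf4. The counts for cDC1 and plasmacytoid markers were near the share of all coding genes and do not tell these types apart. Macrophage markers, with 4 of 5, had a higher share than cDC1 markers, with 9 of 15. The check therefore does not set cDC1 apart from macrophages either. An accessible start does not show that a gene is transcribed, and the part of other cells in these regions was not tested.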

How the data were processed

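ATAC-seq peak lists of 2 samples were used, as the authors deposited them, with 1 line per summit and coordinates of mm10. Tools listed without a role, per the submitters' processing notes, are MACS2, HOMER 4.9.1, Picard 2.8.1, BWA 0.7.17 and Trimmomatic. Read shifting, duplicate removal and threshold are not given in the sources used here, and each can alter the weak end of a list. The deposited fold enrichment is a ratio of summit to local background, taken here with 1 read added to each. It is therefore lower than the plain ratio of reads, most of all where the background is low. The significance of each summit is deposited as −log10 of p and of q. The deposited score is 10 times the −log10 q, without decimals. The lowest −log10 q was 3.00 in both lists. Because the libraries differ in depth and background, their fold enrichments are not on the same scale.

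Summits of a peak were joined into 1 region with the values of its best summit. Peaks that overlapped by at least 1 bp were merged into a shared region. The read number of each summit was solved from its fold enrichment together with its Poisson p, which returned the −log10 p to within 0.002 for 100.0% of summits. The median shared summit held 17 and 25 reads in replicates 1 and 2. Genes and promoters came from RefSeq tables of GRCm38.p6; 9 of the 10 genes had a promoter entry, and these tables give gene bounds without exons. The autosomes and X were used. Motifs were exact strings. Of 58 listed pathway genes 57 were matched. The 10 genes, the lists and the rule for named genes (all 10, the 3 strongest pathway genes, and, in each list, the genes with or without a start region where these were 5 or fewer) were chosen with earlier results of these data known. Python 3.11.15, numpy 2.4.6, scipy 1.17.1, pandas 2.3.3 and matplotlib 3.10.9 were used, and the overlap and read recovery steps were tested on simulated data. Alternatives were other distances, start windows, overlaps and score thresholds, and each replicate alone.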

Additional observations from a re-analysis of the deposited data

How the results depend on the processing

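The count of 8 genes with an open start was unchanged with start windows of 500 bp and 2 kb, with a reciprocal overlap of 50%, with the better-scoring 50% of each list and in either replicate alone, and under all of these the exceptions were Ticam2 and Ikbke. With the better-scoring 50%, Myd88 was counted only through the Acaa1a region 948 bp from its start, since its own start region ranked at percentile 5.71 in replicate 1. The 76 shared regions became 117 within 100 kb and 46 with the better-scoring 50%; without replicate 1 or without replicate 2 the count ranged from 86 to 102. The share of replicate 1 peaks that were shared was 83.7% with reciprocal overlap, and that of replicate 2 was 86.8% with the better-scoring 50%. The counts of single genes stayed within 1.5 times for 4 of 10 genes within 20 kb, 4 of 10 within 100 kb and 5 of 10 with the better-scoring 50%, where Ikbke had 0. These settings alter the size of the window or of the lists, and the part of each in the changes was not tested. No paired analysis was possible because the 2 samples form 1 group. Sites with fewer than 7 reads at the summit in replicate 1 or 9 in replicate 2 are below what the lists show.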
